A study of Equus caballus with 26 samples.

Results

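The proteasome is the barrel-shaped protease that degrades ubiquitin-tagged proteins. Its 20S core is built of a ring of alpha subunits (PSMA genes) on each side of rings of beta subunits (PSMB genes), and only *PSMB5*, *PSMB6* and *PSMB7* carry the catalytic sites of the constitutive core. Lymphocytes and other cells exposed to interferon gamma put *PSMB8*, *PSMB9* and *PSMB10* in the place of these subunits and thereby form the immunoproteasome, which supplies peptides to MHC class I molecules. The 19S cap (PSMC and PSMD genes) recognises and unfolds tagged proteins, the 11S activators (*PSME1* and *PSME2*, or *PSME3*) and PA200 (*PSME4*) open the core in another way, *PSMF1* is a core inhibitor, and the PSMG proteins help the core to assemble.

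Gene names were counted as members where the GeneName or the Description of the array files named a gene with a symbol that starts with PSMA, PSMB, PSMC, PSMD, PSME, PSMF or PSMG. This rule found 49 of 24415 gene names, 48 of which were well above background on 3 or more of the 26 arrays. The testis-type core subunit *PSMA8* was well above background on 0 arrays. Nearest to the limit among the members inside it was an alpha-type subunit without a stated number, well above background on 10 arrays. The thymus-type subunit *PSMB11* was so on 23 arrays, the ubiquitin receptor *PSMD4* on 25, and all other members inside the limit on 26. *PSMC3IP* entered through its symbol but is a partner in recombination and not a subunit. *PSME3*, *PSMG2*, *PSMD9* and *PSME3IP1* were named only through a RefSeq table and were kept apart as 4 further genes.

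Whole blood of pure and part Arabian endurance horses was taken before (T0) and immediately after (T1) a competition of 160 km, and its RNA was hybridised to custom equine arrays of 1 colour. The training set held 3 geldings (horses 2, 32 and 41), each at T0 and at T1. The study calls this set experimental and describes 10 horses in it, so that only a part is used here. The study's validation set was likewise larger at both time points than the one used here. The validation set held 7 other horses at T0 (3 females and 4 geldings) and 13 at T1 (3 females and 10 geldings), so that its comparison of T1 with T0 is also one of different animals. By the study's methods, all horses sampled at T1 completed the ride, whereas most of its full validation set sampled at T0 were later eliminated. The part of that outcome in the validation comparison was not tested. Levels are log2 signals minus the 75th percentile of the same array, so that 0 means as bright as that percentile. They were compared for the same probe only, never between probes.

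On each array 60.2% to 75.3% of its probes gave a signal well above background. The T0 array of validation horse 47 stood apart, as given below, and the T1 array of validation horse 34 was scanned in a single pass. The blood showed the leukocyte markers of its label at both time points, but their levels moved with the competition. In the validation set, 7 of 10 neutrophil markers rose, while 9 of 9 T cell, 7 of 7 B cell and 6 of 8 NK markers fell, with 1 NK marker rising. The training set had 6 neutrophil markers higher and 6 T cell, 3 B cell and 5 NK markers lower at T1. The summed level of the T cell markers lay between 4.32 and 5.63 at T0 and between 3.59 and 4.49 at T1 in the validation set, and that of the neutrophil markers between 7.21 and 9.72 at T0 and between 8.98 and 11.05 at T1. In whole blood, fewer cells of a type and less RNA per cell cannot be told apart. The part of these marker shifts in any change below was not tested.

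The probes behind the results below are shown by their first 30 of 60 bases, 5′ to 3′, with positions in the EquCab1 build that the files use. First come the immunoproteasome subunits, each with the constitutive subunit whose place it takes. No stretch is capitalised, since no part of a probe carries more weight than another.
PSMB8: tattgccaccttacgggtgaacaaggtgat
PSMB5: atcgaaatgcttcatggaaccaccaccctg
PSMB9: agctgccgaaattctatgatgagtgaatct
PSMB6: ttgggagaccagatccccaaattcaccatt
PSMB10: tgctgcgaacactgagctcacccacaaagc
PSMB7: gaagtaacattgatctctgtgtcatcagca

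The *PSMB8* probe lay at chr20:26852202-26852418 and the *PSMB9* probe at chr20:26867610-26867669, interleaved with those of the peptide transporter genes *TAP2* (chr20:26838355-26838414) and *TAP1* (chr20:26856595-26856654). The *PSMB10* probe lay at chr3:18195257-18195443. The probes of *PSMB8*, *PSMB10* and *PSMB5* cover 217, 187 and 774 genomic bases with 60 bases of transcript, so that each spans a gap in the genome between aligned blocks. *PSMB5* had its probe at chrUn:181516299-181517072, *PSMB6* at chr11:48499932-48499991 and *PSMB7* at chr25:10283174-10283233.

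Next are the activators, where *PSME1* has 2 gene names on the array with a probe each, and the ATPase and the assembly chaperone with the largest change.
PSME1: aactttgagaagctcaagaagcccagggga
PSME1, further gene name: aatgagaagattgtagtccttctgcagcgc
PSME2: atcatatcatcagcagcaacctggagaaga
PSME4: aagtcttgaacctaaccaaggacttgatgg
PSMC6: ttgcagcagaagttataagagtatgttgaa
PSMG3: agtcaccgggcatgaatcatgccctcgatg

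The probes of *PSME2*, *PSME1* and its further gene name followed each other on the unplaced sequence at chrUn:180679371-180679430, chrUn:180682855-180682914 and chrUn:180683913-180683972. *PSME4* was probed at chr15:42853537-42853596, *PSMC6* at chr24:898445-898504 and *PSMG3* at chrUn:324041768-324041827.

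Most members that passed the test belong to the immunoproteasome, its activators and the assembly chaperones. In the validation set the 3 immunoproteasome subunits, *PSME1*, *PSME2* and all 3 measured members of the PSMG chaperones were under-expressed at T1. There *PSME4* and *PSMC6* were over-expressed, and 0 of 14 constitutive core subunits passed the test. *PSMB8*, *PSMB9* and *PSME1* were also under-expressed and *PSME4* over-expressed in the training set. Counts are from limma at a Benjamini-Hochberg adjusted p under 0.05 over all gene names tested.

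As a group the members did not stand out by number. In the validation set, 13 of 47 members tested (27.7%) passed the test, 2 higher and 11 lower at T1, where 44.2% of all gene names passed, 20.3% higher and 23.9% lower. Of 48 members in the training set, 4 (8.3%) passed, 1 higher and 3 lower, where 10.1% of all gene names passed, 6.16% higher and 3.95% lower. These training calls rest on few horses, since 0 members passed without horse 2, 1 without horse 32 and 5 without horse 41. The median change of the members was -0.23 on the log2 scale in the validation set, against -0.07 over all gene names, and -0.29 in the training set, against 0.03. A change below 0 was measured for 36 of 47 members in the validation set and for 34 of 48 in the training set. The difference of the change between the sets was past the threshold of limma for 0 of 48 members and for 0.0% of all gene names. At an unadjusted p under 0.05 it held 99 gene names and 1 member, *PSMB3-like*, whose change was -1.06 in the training set and -0.02 in the validation set.

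**Figure D1:**
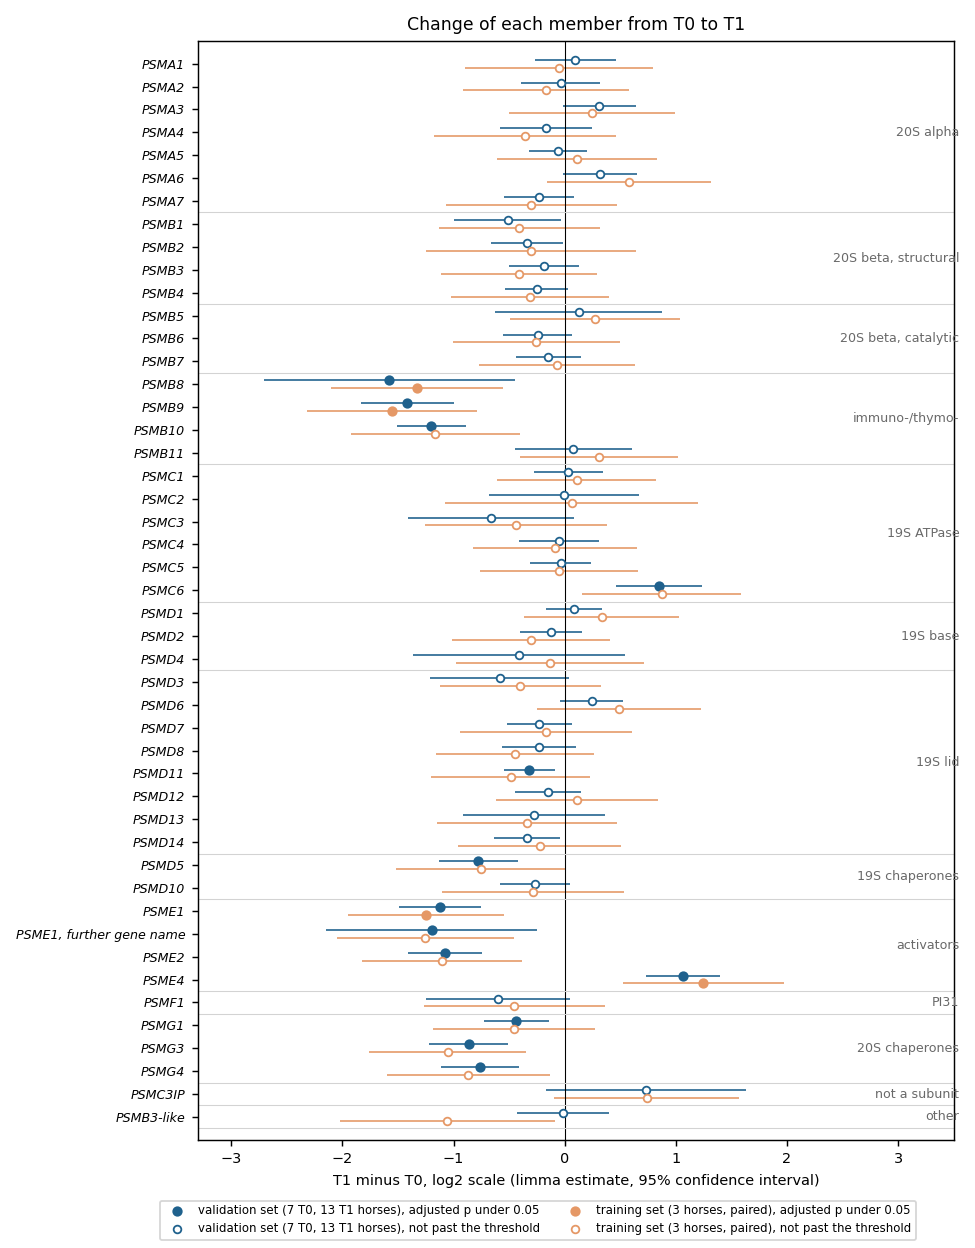
Change of each member from T0 to T1 (horizontal axis, log2 scale, limma estimate with 95% confidence interval) in the validation set (blue) and the training set (orange), by role in the proteasome; filled points passed the adjusted threshold and open points did not. The points of *PSMB8*, *PSMB9*, *PSMB10*, *PSME1* and *PSME2* lie below -1 in both sets and that of *PSME4* above 1, while those of the constitutive core lie between -0.51 and 0.58.

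In the validation set *PSMB8* and *PSMB9* carried the largest falls among the members. *PSMB9*, which replaces *PSMB6*, lay at 3.62, 4.85 and 5.41 (lowest, median and highest) at T0 in the validation set and at 2.60, 3.27 and 3.85 at T1. Of the 13 horses at T1, 11 were below the lowest horse at T0. The change was -1.42 (SE 0.20, n = 7 and 13, limma adjusted p = 2e-05), a 2.67-fold lower signal. Among the training horses *PSMB9* moved from 4.75 to 2.71 in horse 2, from 4.22 to 3.16 in horse 32 and from 4.65 to 3.08 in horse 41. All 3 training horses were thus lower at T1, with a change of -1.55 (SE 0.34, limma adjusted p = 0.027). Each of the 5 probes of *PSMB9* gave a change below 0 in both sets. These probes start between chr20:26867606 and chr20:26867610 and share most of their bases, so they are not independent measurements.

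*PSMB10*, which replaces *PSMB7*, ranged over 4.08, 4.87 and 5.25 at T0 and 3.17, 3.65 and 3.89 at T1 in the validation set. It was the 1 member of 47 (2.1%) whose groups did not overlap, where 2.21% of all gene names had no overlap. Its change was -1.20 (SE 0.15, limma adjusted p = 6.41e-06), 2.30-fold lower. The training horses went from 4.94 to 3.28, from 4.46 to 3.75 and from 4.65 to 3.54. That change of -1.16 (SE 0.33) had a limma adjusted p of 0.0595 and did not pass.

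*PSMB8*, which replaces *PSMB5*, was far more variable between horses. It ranged over -1.38, 0.63 and 1.72 at T0 and -3.27, -1.09 and 0.56 at T1 in the validation set, and only 5 of 13 horses at T1 were below the lowest at T0. The change was -1.58 (95% confidence interval -2.70 to -0.45, limma adjusted p = 0.0224). Horse 2 went from 0.87 to -0.36, horse 32 from 0.06 to -1.85 and horse 41 from -0.34 to -1.19. The training change was -1.33 (SE 0.34, limma adjusted p = 0.0442). It no longer passed without the replicate block for the pairing (adjusted p = 0.0988) or in a single fit of all 26 arrays (adjusted p = 0.338).

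The thymus-type subunit *PSMB11* was dim and changed by 0.08 (SE 0.25, limma adjusted p = 0.83) in the validation set, which did not pass.

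None of the 3 constitutive counterparts passed the test. *PSMB5* ranged over -1.88, 0.02 and 0.54 at T0 and -1.97, -0.14 and 0.85 at T1, with a difference of 0.12 (95% confidence interval -0.63 to 0.88). *PSMB6* ranged over 3.60, 4.13 and 4.42 at T0 and 3.33, 3.72 and 4.36 at T1, with a difference of -0.24 (-0.55 to 0.07). *PSMB7* ranged over 1.78, 2.32 and 2.59 at T0 and 1.67, 2.00 and 2.52 at T1, with a difference of -0.15 (-0.44 to 0.15). The groups of all 3 genes overlapped, and their limma adjusted p lay between 0.197 and 0.809. In training horses 2, 32 and 41, *PSMB5* went from 0.03 to 0.71, from 0.81 to 0.54 and from -0.31 to 0.10, *PSMB6* from 4.25 to 3.76, from 3.17 to 3.44 and from 4.21 to 3.67, and *PSMB7* from 2.27 to 2.07, from 1.86 to 1.90 and from 2.09 to 2.05. Each gene therefore moved in both directions among the 3 horses.

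**Figure D2:**
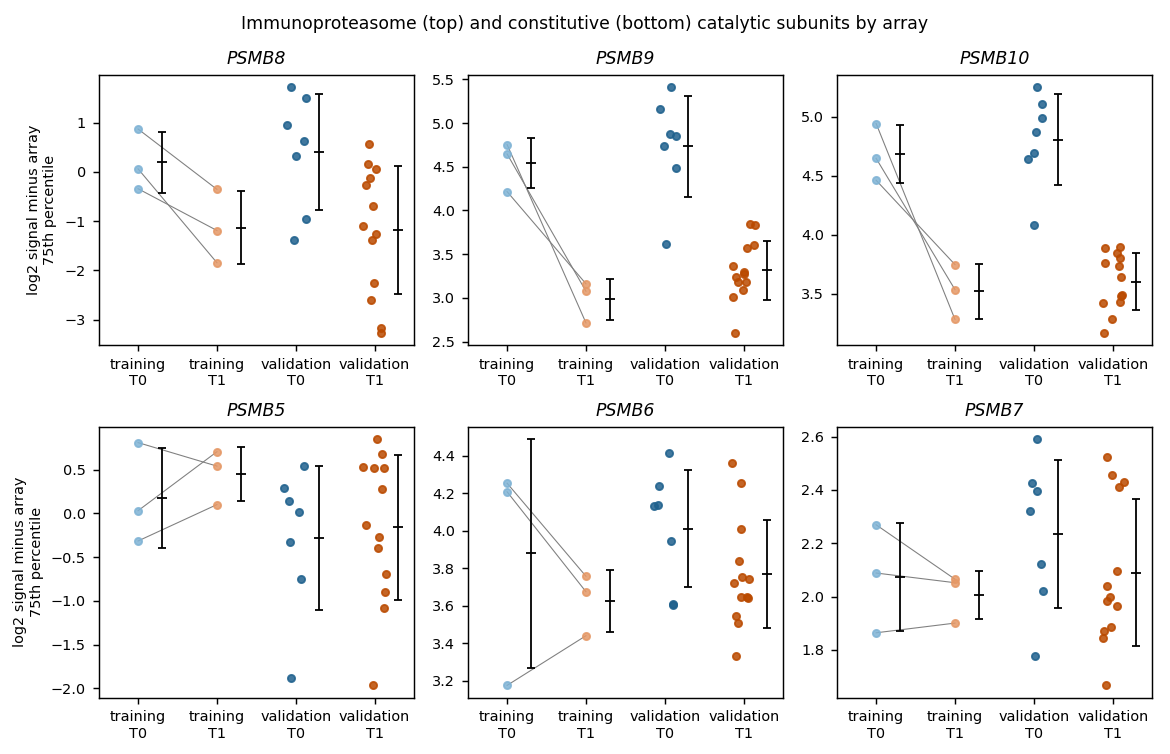
Level of the immunoproteasome subunits *PSMB8*, *PSMB9* and *PSMB10* (top) and of the constitutive subunits *PSMB5*, *PSMB6* and *PSMB7* (bottom) on each array (vertical axis, log2 signal minus the 75th percentile of the array; scales differ between panels); lines join the arrays of a training horse, and bars are the mean and SD of a group. The T1 points of *PSMB10* all lie under its T0 points in the validation set, where the points of *PSMB5*, *PSMB6* and *PSMB7* overlap.

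The difference between each pair was also tested directly, as the change of each immunoproteasome subunit minus that of its counterpart on the same array, with an exact two-sided permutation test over all 77520 splits of the 20 validation horses. Only changes in whole-blood signal enter here, not the levels of both probes, and the make-up of the core itself was not measured. *PSMB9* fell by 1.17 more than *PSMB6* and *PSMB10* by 1.06 more than *PSMB7* (log2 differences of -1.17 and -1.06, exact p = 1.29e-05 for each, the smallest that the splits allow, adjusted p = 1.93e-05 over the 3 pairs). *PSMB8* minus *PSMB5* differed by -1.70 (exact p = 0.000426, adjusted p = 0.000426), with an SD between horses of 1.003 at T1 and 0.49 at T0. In training horses 2, 32 and 41 the difference was -1.90, -1.64 and -1.26 for *PSMB8* minus *PSMB5*, -1.54, -1.32 and -1.04 for *PSMB9* minus *PSMB6*, and -1.46, -0.75 and -1.08 for *PSMB10* minus *PSMB7*. All 9 values were below 0, although the exact sign-flip test of 3 horses cannot give a p under 0.25.

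The whole constitutive 20S core had no called member. Its 14 tested subunits changed by -0.51 (*PSMB1*) to 0.32 (*PSMA6*) in the validation set, with a median of -0.16, and by -0.41 (*PSMB3*) to 0.58 (*PSMA6*) in the training set, with a median of -0.21. With limma 0 of the 14 passed in either set, with adjusted p between 0.0764 and 0.878 in the validation set, where 2 had an unadjusted p under 0.05 (0 in the training set). The 7 alpha subunits had a median of -0.04 in the validation set, and the 4 structural beta subunits *PSMB1*, *PSMB2*, *PSMB3* and *PSMB4* a median of -0.30 with all 4 below 0. This result depended on the scaling. Under quantile normalization 5 of the 14 were under-expressed in the validation set, *PSMB1* (-0.61), *PSMB2* (-0.53), *PSMA7* (-0.48), *PSMB4* (-0.46) and *PSMB6* (-0.44), with a median of -0.27 over the 14. When arrays were centred on their median, 0 of 14 passed and the median was -0.02.

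In the 19S cap, 1 of 17 tested subunits was over-expressed and 1 under-expressed at T1 in the validation set, with a median of -0.16 and 13 below 0. The over-expressed one was *PSMC6*, an ATPase of the ring that unfolds substrates. It ranged over 0.15, 0.72 and 1.39 at T0 and 1.13, 1.61 and 2.40 at T1 in the validation set. Of 13 horses at T1, 10 were above the highest at T0. The change was 0.84 (SE 0.19, limma adjusted p = 0.00106). In the training horses it went from 0.90 to 1.56, from -0.08 to 0.72 and from 0.85 to 2.01, a change of 0.87 (SE 0.32) with a limma adjusted p of 0.106. The other 5 ATPases changed by -0.66 (*PSMC3*) to 0.03 (*PSMC1*) in the validation set and did not pass.

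The under-expressed cap subunit was *PSMD11*, part of the lid, which holds the deubiquitinating *PSMD14*. Its levels of 0.03, 0.47 and 0.58 at T0 and -0.23, 0.10 and 0.41 at T1 overlapped, and the change was -0.32 (SE 0.11, limma adjusted p = 0.0225). Centred on the array median, this change was -0.18 (adjusted p = 0.263) and no longer passed. Among the 8 lid subunits the change ran from -0.59 (*PSMD3*) to 0.24 (*PSMD6*). The scaffold subunits *PSMD1* and *PSMD2* changed by 0.08 and -0.12, and the ubiquitin receptor *PSMD4* by -0.41 (SE 0.46), all without passing.

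*PSMD5*, a chaperone of the cap's base that is not part of the finished particle, was under-expressed more clearly. It ranged over -0.95, -0.36 and 0.09 at T0 and had a median of -1.07 and a highest value of -0.78 at T1, with 11 of 13 horses below the lowest at T0. The change was -0.78 (SE 0.17, limma adjusted p = 0.00105). The training horses went from -0.32 to -1.58, from -0.52 to -1.21 and from -0.52 to -0.84, a change of -0.76 that did not pass (limma adjusted p = 0.169). A dimmer probe of *PSMD5* gave smaller changes, -0.47 in the validation set and -0.39 in the training set. With the mean of both probes the validation change was -0.62 (limma adjusted p = 0.00292). *PSMD10*, another base chaperone, changed by -0.27 (SE 0.15, limma adjusted p = 0.168) and *PSMD9*, named through RefSeq alone, by -0.19 (limma adjusted p = 0.307).

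The activators moved in opposite directions. *PSME1*, the alpha subunit of the interferon-inducible 11S ring, ranged over 3.14, 4.15 and 4.94 at T0 and 2.71, 2.99 and 3.57 at T1 in the validation set. Of 13 horses at T1, 10 were below the lowest at T0, and the change was -1.12 (SE 0.18, limma adjusted p = 6.13e-05). The training horses went from 4.24 to 2.88, from 4.23 to 3.02 and from 4.01 to 2.84, a change of -1.24 (SE 0.31, limma adjusted p = 0.0401). Centred on the array median, that training change was -1.14 (adjusted p = 0.0546) and no longer passed.

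*PSME2*, the beta subunit of the same ring, ranged over 3.84, 4.63 and 5.17 at T0 and 2.96, 3.42 and 4.13 at T1, where 12 of 13 horses were below the lowest at T0. Its change was -1.08 (SE 0.16, limma adjusted p = 3.08e-05). The training horses were all lower at T1, from 4.72 to 3.29, from 4.15 to 3.33 and from 4.31 to 3.25, and the change of -1.10 had a limma adjusted p of 0.0602. The further gene name of *PSME1* changed by -1.20 (SE 0.46, limma adjusted p = 0.0385) in the validation set, with medians of 2.24 at T0 and 0.82 at T1 and wide, overlapping ranges, the latter from 12 arrays after removal of an outlier spot. The training horses had changes from 2.29 to 1.64, from 3.33 to 1.45 and from 1.87 to 0.64.

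*PSME4*, which encodes the ATP-independent activator PA200, rose where *PSME1* and *PSME2* fell. Its levels were 0.36, 0.91 and 1.63 at T0 and 1.22, 1.94 and 2.34 at T1 in the validation set, with 12 of 13 horses at T1 above the highest at T0. The change was 1.07 (SE 0.16, limma adjusted p = 3.44e-05), 2.09-fold higher. The training horses went from 0.93 to 2.28, from 0.59 to 2.09 and from 1.09 to 1.99, a change of 1.25 (SE 0.32, limma adjusted p = 0.0436). *PSME3*, the nuclear 11S activator named through RefSeq alone, changed by 0.18 (SE 0.14, limma adjusted p = 0.285). The inhibitor *PSMF1* changed by -0.60 (SE 0.31, limma adjusted p = 0.128) and did not pass.

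The chaperones that assemble the alpha ring of the core were under-expressed in the validation set, 3 of 3 measured members. *PSMG3* ranged over 0.17, 0.79 and 1.06 at T0 and -0.67, -0.07 and 0.57 at T1, with a change of -0.87 (SE 0.17, limma adjusted p = 0.000405). It went from 0.97 to -0.31, from 0.62 to -0.39 and from 0.61 to -0.26 in the training horses. These 3 horses changed by -1.05 on average (limma adjusted p = 0.0653).

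Its partner *PSMG4* changed by -0.76 (SE 0.17, limma adjusted p = 0.00114), between 1.91, 2.92 and 3.24 at T0 and 1.43, 2.01 and 2.60 at T1. *PSMG1* changed by -0.44 (SE 0.14, limma adjusted p = 0.0163), with levels of 0.59, 0.96 and 1.43 at T0 and 0.16, 0.51 and 1.10 at T1, and no longer passed once arrays were centred on the median. *PSMG2*, its partner, named through RefSeq alone, changed by -0.52 (SE 0.14, limma adjusted p = 0.00502). *PSMG1* and *PSMG4* changed in the training set by -0.46 and -0.87 without passing.

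**Figure D3:**
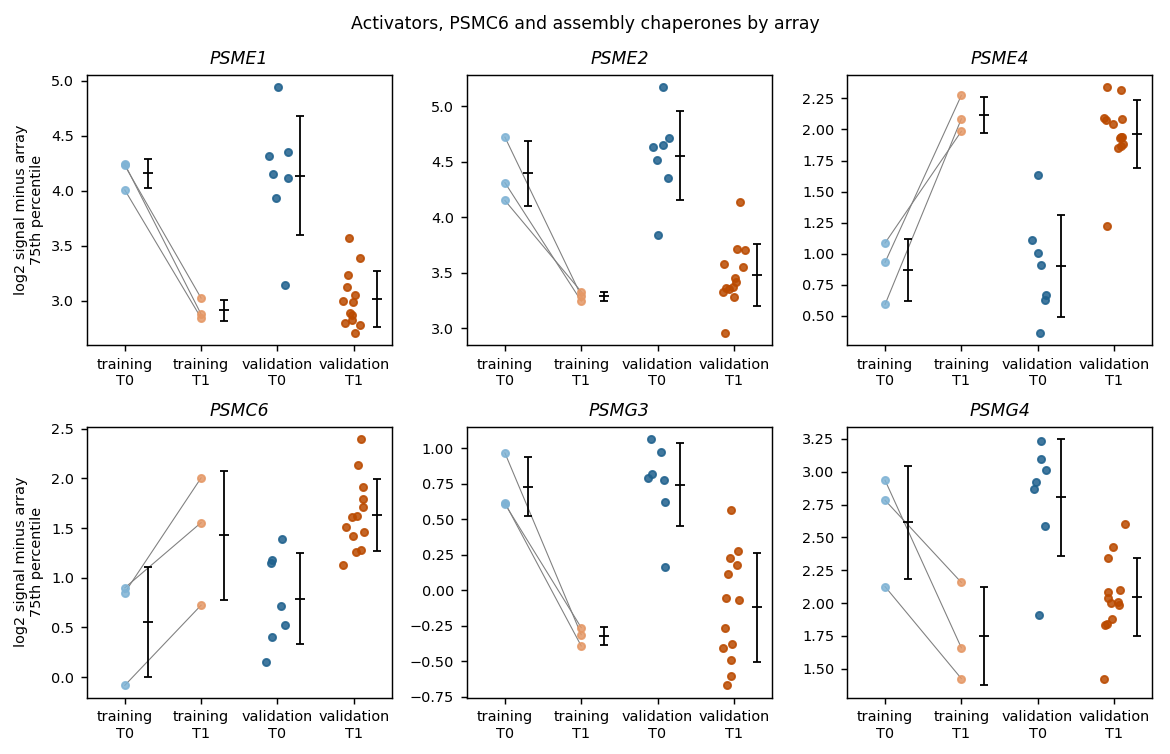
Level of *PSME1*, *PSME2*, *PSME4*, *PSMC6*, *PSMG3* and *PSMG4* on each array (vertical axis, log2 signal minus the 75th percentile of the array; scales differ between panels), with lines joining the arrays of a training horse and bars for the mean and SD of a group. *PSME4* and *PSMC6* lie higher at T1 in all 3 training horses and the other genes lie lower; at validation T0 a single point lies at 3.14 for *PSME1*, 3.84 for *PSME2* and 1.63 for *PSME4*, on the side of the T1 points, and each belongs to horse 47.

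At T0 the array of horse 47 lay nearest to the T1 arrays for several members. It had the lowest *PSMB9* (3.62, the other 6 horses 4.49 to 5.41), *PSMB10* (4.08, the others 4.64 to 5.25), *PSME1* (3.14, the others 3.94 to 4.94) and *PSME2* (3.84, the others 4.35 to 5.17) and the highest *PSME4* (1.63, the others 0.36 to 1.11). Its summed neutrophil markers were at 9.72, against 7.21 to 7.70 in the others, and its T cell markers at 4.32, against 5.08 to 5.63. It also lay outside the other 6 horses for the summed markers of NK cells (4.38, the others 5.07 to 7.30), B cells (3.77, the others 3.87 to 5.04), monocytes (8.22, the others 7.44 to 8.15) and erythroid cells (8.35, the others 3.66 to 7.28), and inside them for platelets (0.67, the others -0.09 to 0.88). The part of these marker levels was not tested. Without horse 47, *PSMB9*, *PSMB10*, *PSME1*, *PSME2*, *PSME4* and *PSMG3* did not overlap between T0 and T1, 6 of 47 members (12.8%), where 12.9% of all gene names did not. The changes of *PSMB8*, *PSMB9*, *PSMB10*, *PSME1*, *PSME2*, *PSME4*, *PSMC6* and *PSMG3* kept their direction and passed without it.

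The validation horses were scanned on several days, and 5 of these batches held both time points. Within them the difference had the same direction in 5 of 5 for *PSMB9* (-1.83 to -0.64), *PSMB10* (-1.46 to -0.65), *PSME1* (-1.71 to -0.76), *PSME2* (-1.49 to -0.22), *PSME4* (0.90 to 1.69) and *PSMC6* (0.26 to 1.09), and also for *PSMD5*, *PSMD11*, *PSMG1* and *PSMG4*. It had the same direction in 4 of 5 for *PSMB8* (-4.90 to 0.86), the further *PSME1* gene name (-4.07 to 0.57) and *PSMG3* (-1.02 to 0.07). The batches held 1 or 2 horses at T0 and 1 to 4 at T1. With the scan day as a term in the fit, the change was -1.32 for *PSMB9*, -1.13 for *PSMB10*, -2.15 for *PSMB8*, -1.21 for *PSME1*, -0.98 for *PSME2* and 1.26 for *PSME4*, and each passed. *PSMD11* and *PSMG1* then no longer passed, while *PSMB1* (-0.80), *PSMC3* (-1.13), *PSMD3* (-1.02) and *PSMF1* (-1.08) did.

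Whether subunits that are made or used together also varied together was tested across the validation horses within a time point, for 4 pairs at T0 and T1 (8 tests, adjusted together). *PSMB5* and *PSMB8* rose and fell together at T0 (r = 0.940, exact permutation p = 0.000397, adjusted p = 0.00317; rho = 0.964, adjusted p = 0.0222; n = 7). Without the 2 horses farthest from the median of *PSMB5*, r was 0.910 in 5 horses (permutation adjusted p = 0.191). At T1 r was 0.634 (permutation adjusted p = 0.0587; rho = 0.604; n = 13), and 0.448 without the 2 farthest horses.

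*PSMB8* and *PSMB9*, with *TAP1* between them on the build, had r = -0.598 at T1 (permutation p = 0.0307, adjusted p = 0.0587; rho = -0.582) and r = -0.138 at T0. *PSMB9* and *PSMB10* had r = 0.817 at T0 (exact permutation adjusted p = 0.0587) and 0.394 at T1, and *PSME1* and *PSME2* r = 0.911 at T0 (exact permutation adjusted p = 0.0587) and 0.521 at T1. The T0 values rest on horses 47 and 13, the 2 farthest from the median, since without them r was -0.269 and -0.194.

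The spread between horses split the members in a way that their roles in the proteasome did not. The split was chosen after the values had been seen and is given as a description. Within groups of the validation set, 10 members had an SD between 0.68 and 1.26 on the log2 scale, and the other 37 between 0.18 and 0.57. The 10 were *PSMB8* (1.26), *PSMD4* (1.06), the further *PSME1* gene name (1.04), *PSMC3IP* (0.995), *PSMB5* (0.83), *PSMC3* (0.82), *PSMC2* (0.74), *PSMF1* (0.71), *PSMD13* (0.70) and *PSMD3* (0.68). They thus come from the core, the cap, the activators and the inhibitor. The median SD was 0.329 over the members tested and 0.443 over all gene names.

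These widely varying members followed each other from horse to horse. The 9 of them other than *PSMC3IP* had pairwise r between 0.611 and 0.967 (median 0.903, 36 pairs over 20 horses as deviations from the group mean), and *PSMC3IP* had r between 0.684 and 0.936 with them. The median r among the other members was 0.26. *PSMB9*, *PSMB10*, *PSME1* and *PSME2* had r between 0.578 and 0.934 with each other, but *PSMB9* had r between -0.429 and -0.257 with the 9. The pattern was not particular to proteasome genes, since 2024 of 17404 gene names (11.6%) had r over 0.7 with the mean of the 9, and 383 had r under -0.7. All points share an array each.

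The mean deviation of the 9 was lowest in horse 40 at T0 (-1.20) and in horses 21 (-1.82) and 19 (-1.11) at T1, and highest in horse 29 at T0 (0.82) and horse 24 at T1 (1.25). Horse 47 lay near the middle of T0 at 0.10. The start of the probe in its target, as the files list it, was at base 28 for the further *PSME1* gene name, 182 for *PSMB5* and 306 for *PSMB8*, against 405 for *PSME1*, 664 for *PSMB9* and 785 for *PSMB10*. These are the lowest starts among the 10, and others of the 10 started later, *PSMD3* at 1540. The median start was 532 over the 10 (28 to 1540) and 713 over the other 37 (138 to 5805), with ranges that overlap. The part of the probe's position in this spread was not tested.

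**Figure D4:**
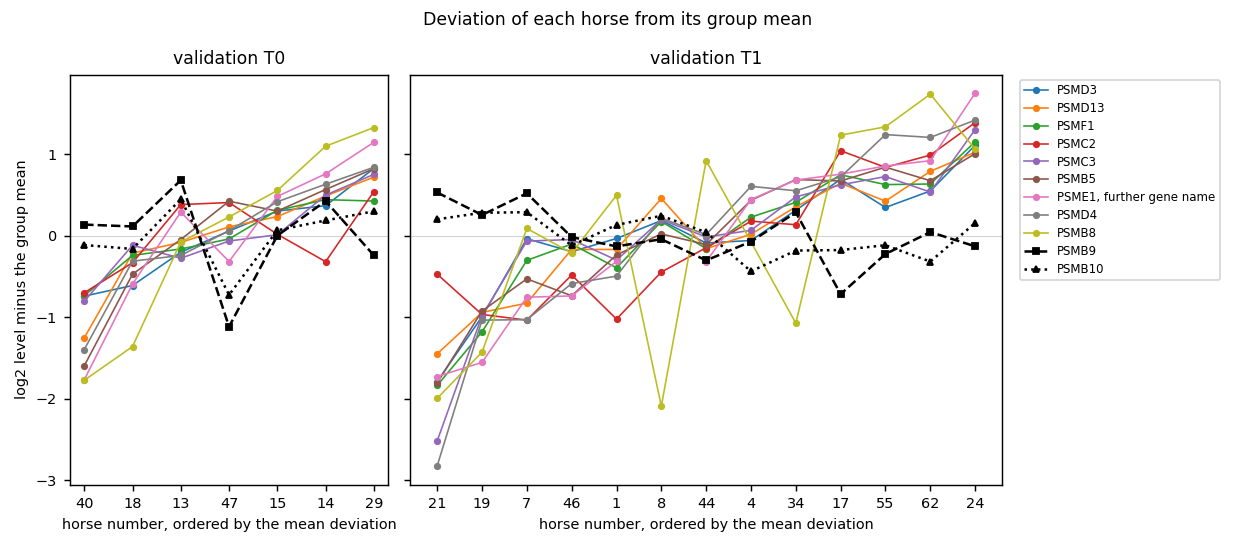
Deviation of each validation horse from the mean of its group (vertical axis, log2 scale) for the 9 widely varying members (coloured lines) and for *PSMB9* and *PSMB10* (black broken lines), at T0 (left) and T1 (right), with horses ordered by the mean deviation of the 9. The coloured lines climb together from horse 40 to horse 29 and from horse 21 to horse 24, with *PSMB8* departing in horses 8, 44 and 34, and the black lines do not climb with them; the order itself comes from the coloured lines.

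Genes that act around the proteasome were set beside its subunits from fixed lists. Over all gene names tested, 20.3% passed higher and 23.9% lower in the validation set, and 6.16% and 3.95% in the training set. The validation counts named below for partners, ubiquitin genes, shuttles and ligases lie near or below these shares. Of 9 proteasome partners without a PSM symbol, 2 were over-expressed in the validation set and 0 passed in the training set. These were *USP14*, a deubiquitinase bound to the cap (0.73, SE 0.15, limma adjusted p = 0.000593), and the cap-bound thioredoxin *TXNL1* (0.57, SE 0.13, limma adjusted p = 0.00156). Of 5 tested regulators of proteasome genes, 3 were over-expressed in the validation set and 2 in the training set.

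The stress-responsive transcription factor *NFE2L2* ranged over 0.41, 0.55 and 1.85 at T0 and 1.86, 2.22 and 2.56 at T1. These groups did not overlap, by a narrow margin (1.852 against 1.861), where 2.21% of all gene names had no overlap. The change of *NFE2L2* was 1.38 (limma adjusted p = 5.36e-06) in the validation set and 1.55 (limma adjusted p = 0.0204) in the training set. Its binding partner *MAFG* changed by 1.49 (limma adjusted p = 0.000279) and 1.72 (limma adjusted p = 0.0402), and the protease *DDI2*, which activates *NFE2L1* protein, by 0.57 in the validation set (limma adjusted p = 0.00294).

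Of 8 genes of MHC class I peptide supply, 4 were under-expressed in the validation set and 1 in the training set. *NLRC5*, a transactivator of MHC class I genes, ranged over -0.51, 0.51 and 1.01 at T0 and -3.12, -0.72 and -0.16 at T1. Its change was -1.31 (limma adjusted p = 0.00368) in the validation set and -1.29 (limma adjusted p = 0.0465) in the training set. *TAP1* and *TAP2*, which import peptides into the endoplasmic reticulum and lie beside *PSMB8* and *PSMB9*, changed by -1.13 (limma adjusted p = 0.0111) and -0.90 (limma adjusted p = 0.000707) in the validation set. They changed by -0.92 and -0.83 in the training set and did not pass there. The fourth, the peptide trimming *ERAP1*, changed by -0.71.

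Of 6 tested genes of interferon signalling, 3 were over-expressed in the validation set, and 0 passed in the training set. The receptor chains *IFNGR1* and *IFNGR2* changed by 1.35 (limma adjusted p = 0.0259) and 0.98 (limma adjusted p = 0.0365), and the kinase *JAK2* by 0.51 (limma adjusted p = 0.0143). *IFNG* itself was not well above background on any array.

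Of 5 ubiquitin and E1 genes, 1 rose in the validation set, the E1 enzyme *UBA1* (0.53, limma adjusted p = 0.00509). Of 7 tested shuttle and p97 genes, 1 rose there, the ubiquitin shuttle *UBQLN1* (0.52, limma adjusted p = 0.00213). Of 6 tested ubiquitin ligases, *FBXO32* fell (-0.56, limma adjusted p = 0.0317) there. None of the shuttle or ligase genes passed in the training set.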

How the data were processed

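Whole-blood RNA of 23 horses was measured on 26 Agilent arrays of 1 colour. The deposited scanner files hold an intensity per spot from Agilent's Feature Extraction, background-subtracted and spatially detrended, and not normalized between arrays by the authors. The deposited series table holds log2 values whose order and nearly equal quantiles are those of quantile-normalized median signals, and it served as an alternative. Of the tools, the submitters' processing notes name limma without a version.

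From the processed signals, control spots and 386 outlier spots over all arrays were left out, 431 saturated spots of horse 34 (none in members' probes) were kept, spots of a probe were averaged, and log2 signals were reduced by each array's 75th percentile (8.74 to 9.76). For a gene name with several probes, the brightest on average was used. Gene names well above background on at least 3 training or 7 validation arrays were tested. limma 3.58.1 (statmod 1.5.0) in R 4.3.3 was used, with p-values adjusted over all gene names and a threshold of 0.05. Horse was a fixed block in the training set, a random block in the fit of all 26 arrays that tested the difference between sets, and no block was possible in the validation set. The labels give both arrays of a training horse the same animal. The deviations of its T0 and T1 arrays from the group means correlated across gene names with r = -0.00866 in horse 2, 0.213 in horse 32 and 0.191 in horse 41. Fits were tested on simulated data. Single values were tested in Python 3.11.15 (scipy 1.17.1) by exact permutation, with correlations over 13 horses taken from 100000 resamples.

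Members and lists were chosen with earlier results of these data known. Values are given for members past the threshold, up to the 6 largest falls in the validation set, for the catalytic subunits with their counterparts and for *PSME1* to *PSME4*; *PSMD5*, *PSMD11*, *PSMG1* and *PSMG4* were added after their values were seen. Of list genes, those past the threshold, at most 3 per list with their statistics, are named. Some results of these lists are not reported here. No probe was found under the names *FCN1*, *MAFK*, *UBB* and *UBQLN2*. Platelet markers (5 tested) had no call, 1 of 4 tested erythroid markers rose, and of 6 tested monocyte markers 2 rose and 1 fell, in both sets. *SLC4A1* and *EPB42* were not well above background on any array. Precision is limited by how many arrays there are. Alternatives were other backgrounds, scalings, filters and probe rules, the deposited series values, slide, scan day and sex as further terms, and leaving out horses.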

Additional observations from a re-analysis of the deposited data

Results flagged for a closer look

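In the validation set at T0, *PSMD11* lay at 0.03 in horse 47 and between 0.39 and 0.58 in the other 6 horses, so that the gap to the nearest horse was 0.658 of the whole range, above Dixon's critical value for 7 samples. It was 1 of 48 members tested in this way, and chance flags about 1 group in 20.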

How the results depend on the processing

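No called member changed sign under any alternative. In the validation set, 13 members passed. The deposited series values gave 21, normexp with quantile normalization 21 and quantile normalization alone 20, which then included falls of *PSMA7*, *PSMB1*, *PSMB2*, *PSMB4*, *PSMB6*, *PSMD7* and *PSMD14*. The training set, with 4 members, was far less stable. It gave 10 with the series values, 12 with normexp, 8 with quantile normalization, 8 with probes well above background on every array, 0 without a filter, and 0 without horse 2, 1 without horse 32 and 5 without horse 41. Without the replicate block for the pairing it gave 6, losing *PSMB8* (adjusted p = 0.0988) and adding *PSMB10*, *PSME2* and *PSMG3*, and a single fit of all 26 arrays lost and added the same members (*PSMB8* adjusted p = 0.338). The difference between the sets had 0 calls under every alternative run (99 gene names at an unadjusted p under 0.05). The T0 correlation of *PSME1* and *PSME2* passed under quantile normalization (r = 0.93, permutation adjusted p = 0.0468) and in the series values (r = 0.90, permutation adjusted p = 0.046). That of *PSMB5* and *PSMB8* no longer passed at T0 without the 2 farthest horses (0.91) and passed at T1 without horse 34 (0.74, permutation adjusted p = 0.0213). The cause was not tested. Centring on the median moved the median of all gene names in the validation set from -0.07 to 0.07 and the share of higher among called gene names from 45.9% to 58.7%, and *PSMG1* and *PSMD11* no longer passed. Under the same centring the training set gave 3 members, without *PSME1* (-1.14, adjusted p = 0.0546). In the training set that share was 60.9%, and between 47.5% (series values) and 87.0% (no filter) under the alternatives. In the training set, slide could not be estimated as a random block and scan day could not be fitted. Promoter motifs were not run.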
